A study of Heterocephalus glaber with 9 samples.

Results

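The 57 genes described here encode sensors of DNA damage, the kinases and mediators that relay its signal, and the enzymes of the main repair pathways. They were chosen by symbol for their known roles, and all 57 have a row among the 16339 gene rows of the naked mole-rat (Heterocephalus glaber) liver count table. By pathway they comprise 6 genes of damage signalling, 3 of the MRN complex, 10 of homologous recombination, 6 of non-homologous end joining, 14 of base excision and single-strand break repair, 3 of mismatch repair, 11 of nucleotide excision repair, 3 of the Fanconi anemia pathway and 1 of direct reversal.

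Cells detect broken or distorted DNA with dedicated protein complexes, and the kinases ATM and ATR pass the signal on to checkpoint kinases that halt the cell cycle. Breaks of both strands are joined either directly, by non-homologous end joining, or by copying an intact sister chromatid, by homologous recombination, which is largely restricted to dividing cells. Damaged single bases are cut out by base excision repair, bulky lesions by nucleotide excision repair and replication errors by mismatch repair. The liver meets many DNA-damaging compounds while most of its hepatocytes do not divide, and the naked mole-rat is known for its very long life for a rodent of its size.

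Poly(A) RNA of liver was sequenced from 6 young and 3 old animals, all male, 1 library per animal. The young animals were 2.7, 2.8, 3.4, 3.7, 3.8 and 4.1 years old. The labels give 20, 30 and 20 years for the old animals A, B and C and mark them as non-breeders, whereas the study's text gives the old animals a minimum age above 20 years. No breeding status is given for the young animals. Sample titles mark all 6 young livers as re-used and none of the old ones, so that the origin of the libraries and age cannot be told apart. The study compared old with young livers to ask how gene expression changes during aging.

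Each liver had between 14541856 and 20464409 gene counts. Old liver A and the liver of the 4.1-year animal stood apart from the other 7. Over the 16221 gene rows kept, tested or not, B and C had a Spearman correlation of 0.992 with each other. A had 0.918 with B and 0.924 with C. The 4.1-year liver had 0.948 to 0.955 with the other young livers, which had 0.981 to 0.990 among themselves. ALB, the main plasma protein made by hepatocytes, took 1.41% of the counts in A and 6.99% to 14.8% in the others. MTRNR2L4, a gene similar in sequence to mitochondrial ribosomal RNA, took 10.1% in A, 11.9% in the 4.1-year liver and 2.43% to 4.17% elsewhere. Results are therefore given with and without these 2 livers. In bulk RNA, fewer cells of a type and less RNA per cell cannot be told apart.

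Of the 57 repair genes, 10 differed between old and young livers. XPC, CHEK1, MDC1, DDB2, PALB2, RAD52, ERCC6 and FANCD2 were higher in old livers, and XRCC6 and WRN were lower. The test was edgeR's quasi-likelihood test, with p-values adjusted by the Benjamini-Hochberg method over all 12277 genes with enough counts and the study's threshold of a false discovery rate (FDR) of 0.1. Levels are given as CPM, the counts of a gene relative to the size of its library after scaling for library composition (TMM), in parts of 1000000. In all, 55 of the 57 genes had enough counts to be tested, and 45 of these did not pass the threshold. The 8 genes called higher are 14.5% of the 55, against 11.7% of all genes tested, and the 2 called lower are 3.64%, against 3.65%. Both shares lay near the background of all genes tested. By pathway the calls rest on 1 to 14 tested genes each, too few to tell a share from that of all genes. At an unadjusted p under 0.05, 18 of the 55 passed. The median log2 fold change of old against young was 0.34 over the repair genes and 0.02 over all genes, with 33 positive and 22 negative values that ran from -1.10 to 3.14. The 3 old livers lay outside the range of the 6 young ones for 9 repair genes (16.4%, against 17.8% of all genes). They lay above it for MDC1, PALB2, LIG3, XPC, ERCC6 and FANCD2, where 9.83% of all genes did, and below it for WRN, XRCC6 and ERCC1, where 8.01% did.

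**Figure D1:**
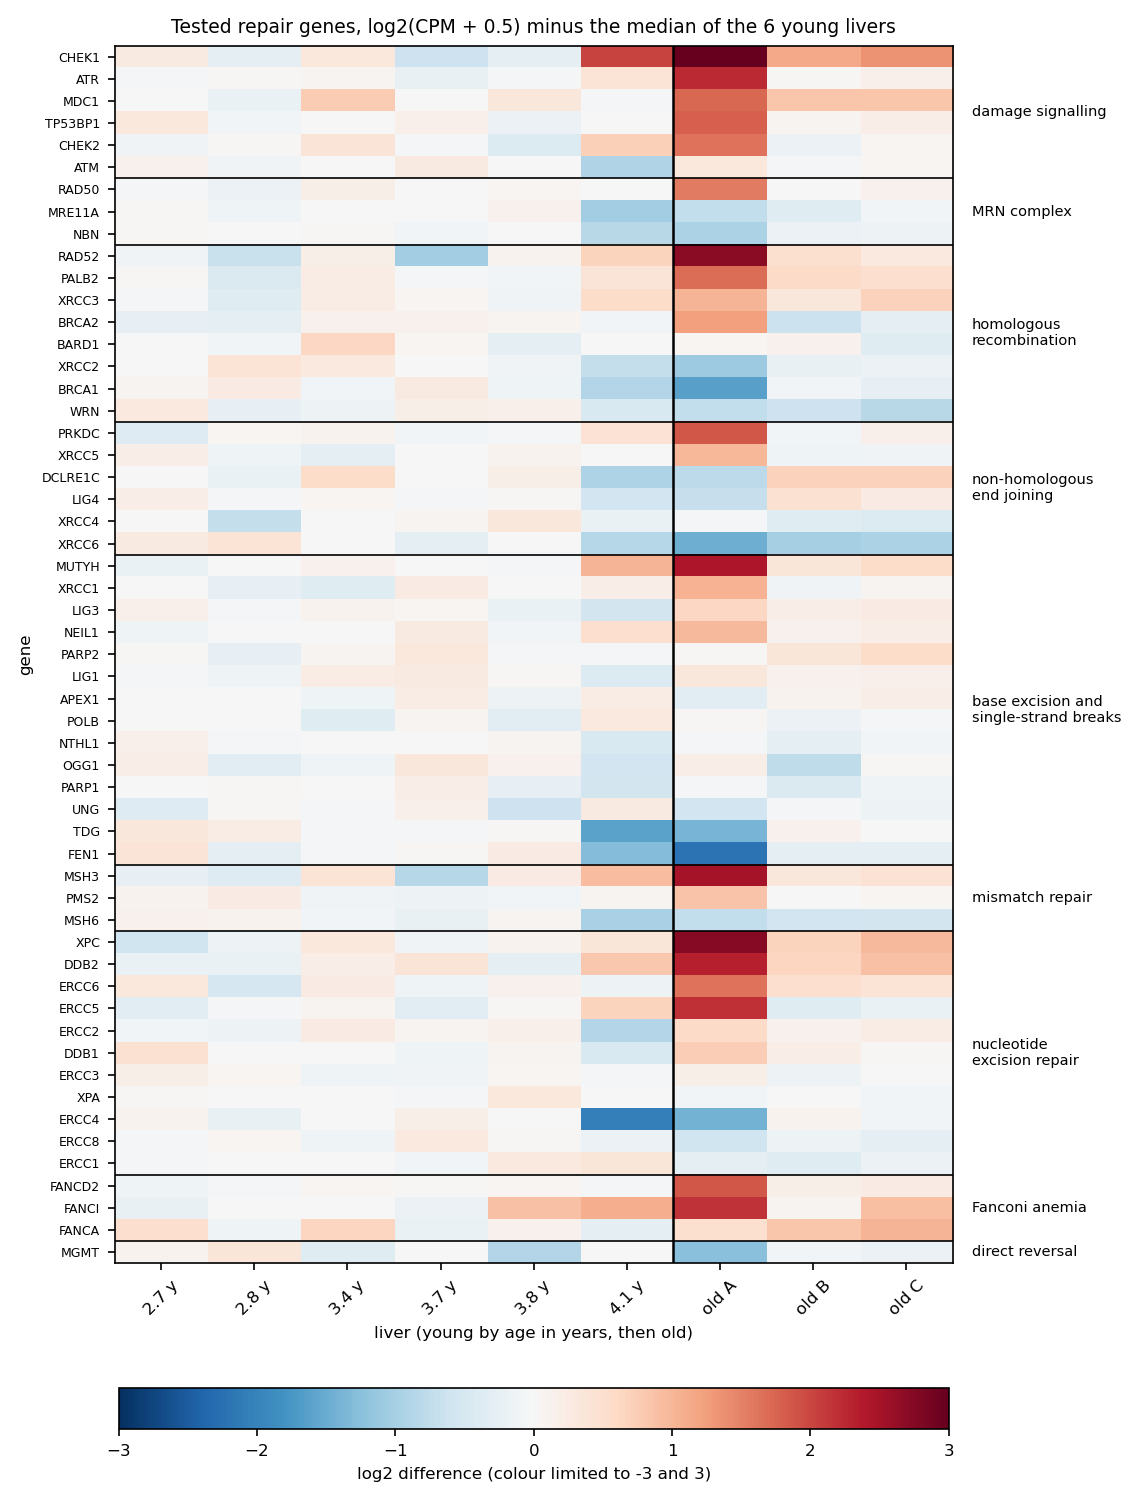
Level of each of the 55 tested repair genes (rows, by pathway) in each of the 9 livers (columns), as the difference of log2(CPM + 0.5) from the median of the 6 young livers, with the colour scale limited to -3 and 3. Old liver A is the highest of the 9 livers in 29 rows (52.7%, against 36.2% of all genes tested) and the lowest in 10 (18.2%, against 32.4%), and the 4.1-year liver is the lowest of the young livers in 22 rows (40%, against 34.3%) and the highest of them in 18 (32.7%, against 35.5%).

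These calls depended on single livers. Without old liver A, 0 of the 55 repair genes passed in edgeR's test (6 at an unadjusted p under 0.05), the called genes had FDR values from 0.14 for XPC to 0.609 for CHEK1, and the median log2 fold change was 0.04, against -0.02 over all genes. In that fit 2.13% of all genes were called higher and 1.35% lower. Leaving out the 2.7-year, the 2.8-year or the 3.7-year liver also left 0 repair genes called in edgeR's test (14 or 15 at an unadjusted p under 0.05), with FDR values between 0.104 and 0.169 for the 10 genes. In these 3 fits 1.02% to 1.63% of all genes were called higher and 0.507% to 0.695% lower. Without the 3.4-year liver only MDC1 and XPC passed, where 6.43% of all genes were called higher and 1.69% lower, and without the 3.8-year liver only XPC did, where 2.53% and 0.775% were. Calls became more numerous without the 4.1-year liver, with 11 repair genes higher (20% of those tested, against 17.0% of all genes) and 3 lower (5.45%, against 7.06%). Without B they were 16 higher (29.1%, against 16.5%) and 1 lower (1.82%, against 3.62%), and without C 14 higher (25.5%, against 15.9%) and 1 lower (1.82%, against 4.33%). WRN also lost its call without B and without C, with FDR values of 0.108 and 0.149.

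Leaving out liver A and the 4.1-year liver together gave 9 repair genes higher (16.4%) and 3 lower (5.45%) among old livers B and C against 5 young ones, where 14.2% of all genes were called higher and 11.7% lower. CHEK1, DDB2, MDC1, PALB2, XPC, WRN and XRCC6 were called in both fits, which is 70% of the 10 genes of the full set and 58.3% of the 12 of the reduced one. RAD52, ERCC6 and FANCD2 lost their call in the reduced set, and XRCC3, DCLRE1C, MUTYH, FANCA and MSH6 gained one. The median log2 fold change over the repair genes was then 0.02, against -0.01 over all genes.

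**Figure D2:**
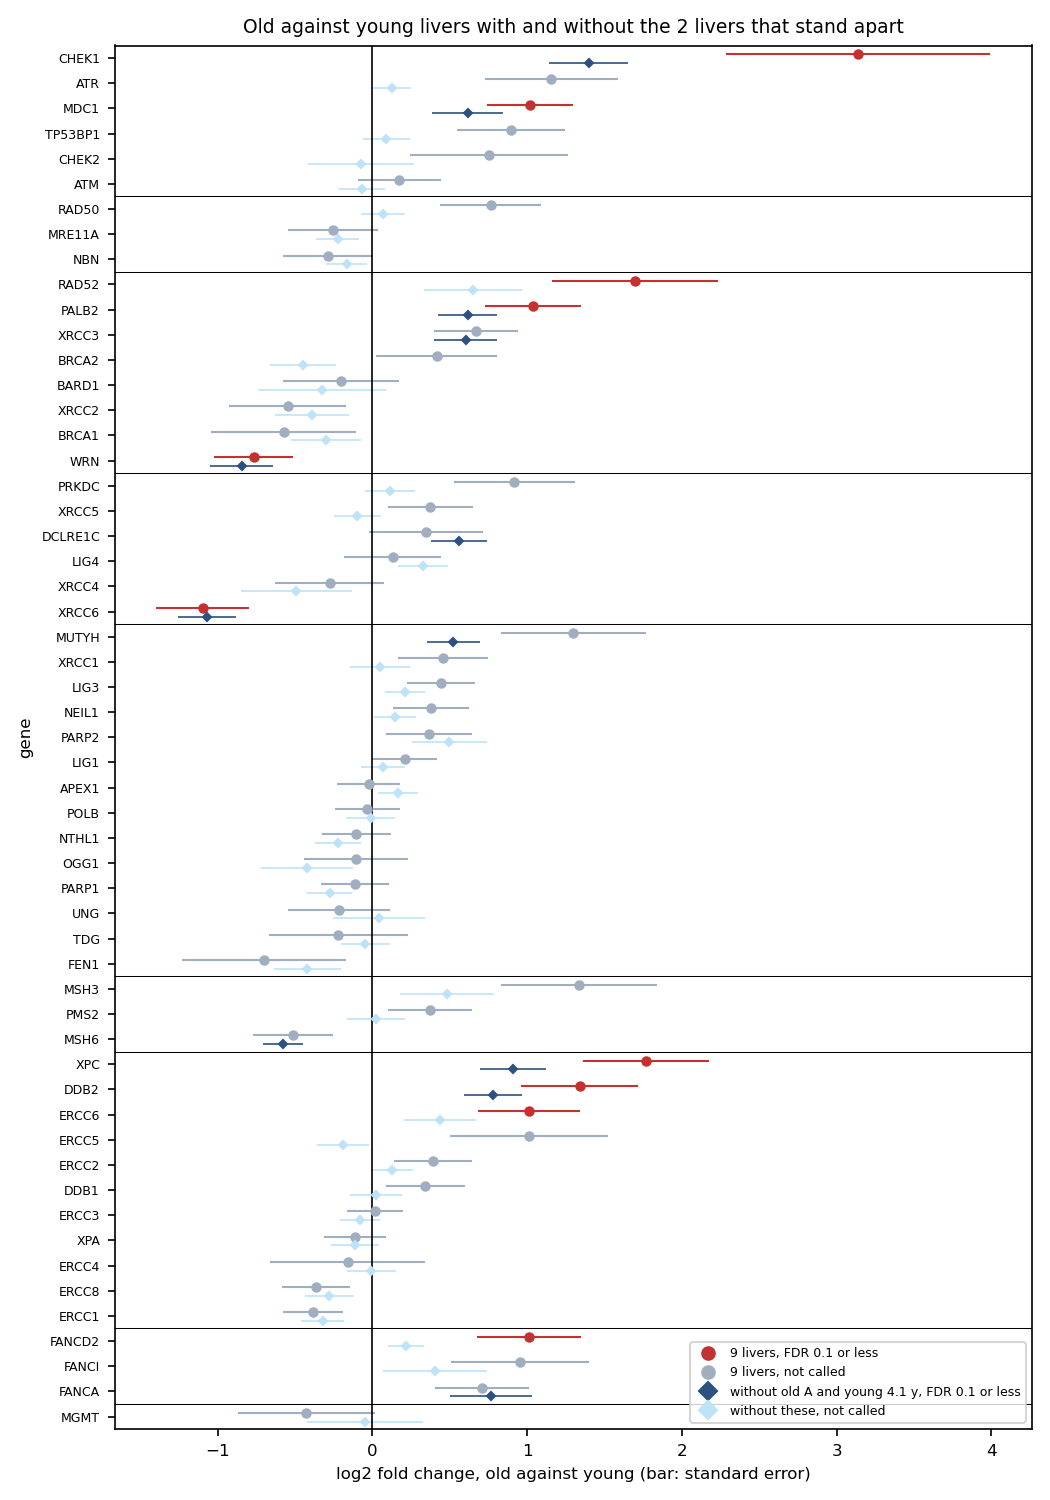
Log2 fold change of old against young livers for the 55 tested repair genes, with bars for the standard error, from all 9 livers (circles) and without old liver A and the 4.1-year young liver (diamonds), with strong colours for genes past FDR 0.1. CHEK1 moves from 3.14 to 1.40 between the fits, whereas XRCC6 moves from -1.10 to -1.07 and WRN from -0.77 to -0.85.

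Among the 6 genes of damage signalling, CHEK1 and MDC1 were higher in old livers (33.3%, against 11.7% of all genes tested). None was lower, and the other 4 did not pass. The median log2 fold change of the 6 was 0.96. CHEK1 encodes the checkpoint kinase that ATR activates at stalled replication forks. Its level in the young livers was 2.95 CPM at the lowest, 4.87 at the median and 21.1 at the highest, the last in the 4.1-year liver, and it was 168 in A, 11.1 in B and 12.8 in C. Liver A thus stood 14.1-fold above the mean of B and C, and the 4.1-year liver alone among the young reached above B and C. The log2 fold change was 3.14 (standard error 0.85, FDR = 0.0587 by edgeR), and 1.40 (standard error 0.26, FDR = 0.0115) without these 2 livers.

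MDC1 encodes the mediator that binds phosphorylated histone H2AX and gathers repair proteins at a break. It was measured at 18.8, 21.7 and 37.0 CPM (lowest, median and highest young liver) and at 72.1, 38.7 and 38.9 in A, B and C. All old livers lay above all young ones, though B and C only narrowly above the highest young liver. The log2 fold change of 1.02 (standard error 0.28, FDR = 0.0598 by edgeR) became 0.62 (FDR = 0.0987) without the 2 livers.

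ATR, the kinase that senses single-stranded DNA, did not pass the threshold. Young livers had 26.3 to 41.2 CPM with a median of 30.8, and old livers had 148, 31.3 and 34.2. Only A left the young range, and the log2 fold change of 1.16 (FDR = 0.112 by edgeR) was 0.13 without the 2 livers. TP53BP1, which holds chromatin at breaks in a state that favours end joining, had a like pattern, with 17.7 to 25.2 CPM in young livers and 71.2, 21.2 and 23.3 in A, B and C (log2 fold change 0.89, FDR = 0.127 by edgeR). ATM, the kinase that responds to double-strand breaks, was at 5.68 to 13.3 CPM in young livers and at 13.7, 10.6 and 11.5 in old ones, a log2 fold change of 0.17 (FDR = 0.681 by edgeR). Its lowest value was that of the 4.1-year liver. CHEK2, the checkpoint kinase downstream of ATM, was a low-count gene at 0.796 to 4.81 CPM over all livers and did not pass.

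The MRN complex binds DNA ends and activates ATM, and none of its 3 genes passed the test. RAD50, its ATPase, was at 9.79 to 12.4 CPM in young livers and at 33.2, 11.1 and 12.1 in A, B and C, with a log2 fold change of 0.76 (FDR = 0.150 by edgeR). NBN, the subunit that recruits ATM, was at 5.28 to 10.1 CPM in young livers and at 4.81, 8.65 and 8.86 in old ones, with a log2 fold change of -0.29 (FDR = 0.522 by edgeR). A had the most RAD50 and the least NBN of all 9 livers. MRE11A, the nuclease of the complex, was at 6.60 CPM in the 4.1-year liver, 13.0 to 15.5 in the other young livers and 8.27 to 13.5 in old livers. NBN and MRE11A were thus lowest among the young in the same liver.

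Of the 10 genes of homologous recombination, 8 were tested, with a median log2 fold change of 0.11. Of these 8, 2 were higher (25%, against 11.7% of all genes tested) and 1 was lower (12.5%, against 3.65%). PALB2 links BRCA1 to BRCA2 at a break. Its level was 4.20, 5.88 and 7.79 CPM (lowest, median and highest young liver) and 19.8, 9.01 and 8.48 in A, B and C. Every old liver exceeded every young one, and the log2 fold change was 1.04 (standard error 0.31, FDR = 0.0713 by edgeR), or 0.62 (FDR = 0.0567) without the 2 livers that stood apart. RAD52, which anneals single strands, was at 4.37, 9.61 and 15.6 CPM in young livers and at 65.4, 13.6 and 11.8 in old ones. Only A exceeded the young range, 5.15-fold above the mean of B and C. The log2 fold change of 1.69 (standard error 0.54, FDR = 0.0792 by edgeR) was 0.65 (FDR = 0.186) without the 2 livers.

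WRN encodes a RecQ helicase whose loss causes Werner syndrome, a premature aging disease, in humans. Young livers had 6.40 CPM at the lowest, 9.00 at the median and 11.1 at the highest, and A, B and C had 5.20, 5.65 and 4.78. All 3 old livers were below all young ones and close to each other, and the lowest young value was again that of the 4.1-year liver. The log2 fold change was -0.77 (standard error 0.25, FDR = 0.0863 by edgeR), also -0.77 without A (FDR = 0.175), and -0.85 (standard error 0.20, FDR = 0.0253) without both livers. WRN was the called gene in which A stood closest to B and C, at 0.997 times their mean.

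BRCA1 and BRCA2, which direct a broken end into recombination, did not pass. BRCA1 was at 1.39 to 3.72 CPM in young livers and at 0.615, 2.78 and 2.41 in A, B and C, with a log2 fold change of -0.57 (FDR = 0.421 by edgeR). BRCA2 was at 4.90 to 6.74 CPM in young livers and at 15.1, 3.77 and 5.01 in old ones, so that A was the highest of the 9 livers and B the lowest. Its log2 fold change was 0.42 (FDR = 0.489 by edgeR) with A and -0.44 without it. XRCC2, XRCC3 and BARD1 had log2 fold changes of -0.55, 0.67 and -0.20, none past the threshold. BLM and RAD54L were not tested in the main fit, with 2 to 12 and 0 to 12 counts per liver.

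Among the 6 genes of non-homologous end joining, XRCC6 was lower in old livers (16.7%, against 3.65% of all genes tested). None was higher, and the median log2 fold change of the 6 was 0.24. XRCC6 and XRCC5 encode the subunits Ku70 and Ku80 of the ring that caps a broken end. The level of XRCC6 in young livers was 61.3, 112 and 148 CPM (lowest, median, highest), with the lowest in the 4.1-year liver, and it was 40.1, 55.8 and 57.9 in A, B and C. No old liver reached the young range. The log2 fold change was -1.10 (standard error 0.30, FDR = 0.0587 by edgeR), -0.95 (FDR = 0.157) without A, and -1.07 (standard error 0.19, FDR = 0.0100) without both livers. XRCC5 did not pass. It was at 14.1 to 19.7 CPM in young livers and at 34.6, 15.6 and 16.0 in old ones, a log2 fold change of 0.37 (FDR = 0.370 by edgeR) that was -0.11 without A.

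PRKDC, the catalytic subunit of the kinase that Ku recruits, was at 10.1 to 18.0 CPM in young livers and at 49.7, 12.6 and 14.9 in A, B and C (log2 fold change 0.92, FDR = 0.151 by edgeR). Only A was outside the young range. DCLRE1C, the Artemis nuclease that trims ends, was at 20.5 in A and 18.5 in the 4.1-year liver, against 57.4 and 57.5 in B and C. It was called higher only in the fit without these 2 livers, with a log2 fold change of 0.56 (FDR = 0.0656 by edgeR). LIG4, which seals the ends, and its partner XRCC4 had log2 fold changes of 0.13 and -0.28 and did not pass.

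None of the 14 genes of base excision and single-strand break repair passed, and their median log2 fold change was -0.03. MUTYH, the glycosylase that removes adenine opposite 8-oxoguanine, came closest. Its level in young livers was 4.01 to 5.13 CPM in 5 of them and 9.90 in the 4.1-year liver, and it was 27.2, 6.10 and 7.05 in A, B and C. A and the 4.1-year liver were each well above the rest of their group. The log2 fold change was 1.30 (FDR = 0.107 by edgeR), and 0.52 (FDR = 0.0653) without the 2 livers, where it was called. In the RefSeq annotation of another assembly MUTYH overlaps TOE1, whose log2 fold change was 1.79, and the library kit does not mark strand, so their reads cannot be told apart where they overlap.

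LIG3, the ligase that closes single-strand breaks with XRCC1, was at 15.3 to 25.4 CPM in young livers and at 35.5, 26.1 and 27.3 in old ones. Its groups did not overlap, but the log2 fold change of 0.44 did not pass (FDR = 0.197 by edgeR). PARP1, which marks strand breaks with poly(ADP-ribose), was at 35.2 to 59.3 CPM in young livers and at 50.3, 37.9 and 47.1 in old ones (log2 fold change -0.11, FDR = 0.742 by edgeR). FEN1, a flap nuclease, and TDG, a thymine glycosylase, were low in both livers that stood apart. FEN1 was at 0.838 CPM in A and 2.05 in the 4.1-year liver, against 4.57 and 4.64 in B and C, and TDG at 3.80 and 3.24, against 11.9 and 10.7. The log2 fold changes of the other 9 genes of the group ran from -0.22 for UNG to 0.46 for XRCC1.

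The 3 mismatch repair genes did not pass with 9 livers, and their median log2 fold change was 0.37. MSH3 and MSH6 encode alternative partners within the complexes that recognize mismatches, MSH3 in the one for larger loops and MSH6 in the one for single mispairs. MSH3 was at 16.0, 30.0 and 56.7 CPM in young livers (lowest, median, highest) and at 168, 37.4 and 40.0 in A, B and C, a log2 fold change of 1.33 (FDR = 0.119 by edgeR). Its highest young value was that of the 4.1-year liver. MSH6 was at 21.1, 41.8 and 45.7 CPM in young livers and at 24.8, 27.8 and 28.3 in old ones, a log2 fold change of -0.51 (FDR = 0.206 by edgeR). The low young value was again the 4.1-year liver, and MSH6 was called lower without the 2 livers, with -0.58 (standard error 0.13, FDR = 0.0213). PMS2, the endonuclease that acts after recognition, was at 9.00 CPM in A and 4.20 to 5.67 in all other livers.

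Nucleotide excision repair held 3 called genes of 11, all higher in old livers (27.3%, against 11.7% of all genes tested). Without A none of the 11 was called. The median log2 fold change with all livers was 0.34. XPC and DDB2 recognize lesions anywhere in the genome, and ERCC6 starts repair where RNA polymerase has stalled. XPC had the lowest p of the 57 genes. Its level was 10.7, 16.5 and 21.4 CPM (lowest, median and highest young liver) and 112, 26.5 and 33.0 in A, B and C. All old livers were above all young ones, and A was 3.76-fold above the mean of B and C. The log2 fold change was 1.77 (standard error 0.41, FDR = 0.0447 by edgeR), 0.83 (FDR = 0.140) without A and 0.91 (standard error 0.22, FDR = 0.0248) without both livers.

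DDB2 was at 16.1, 19.6 and 34.3 CPM in young livers and at 99.9, 30.9 and 36.2 in old ones. Old liver B lay below the highest young liver, which was the 4.1-year one. The log2 fold change of 1.34 (standard error 0.38, FDR = 0.0645 by edgeR) was 0.78 (FDR = 0.0263) without the 2 livers. In the RefSeq annotation of another assembly DDB2 overlaps ACP2, whose log2 fold change was -0.02. DDB1, its partner in the lesion-binding complex, did not pass, with a log2 fold change of 0.34. ERCC6 was at 3.43, 5.06 and 6.45 CPM in young livers and at 16.8, 7.35 and 6.82 in old ones. The groups did not overlap, but C exceeded the highest young liver only slightly, and the log2 fold change of 1.01 (standard error 0.33, FDR = 0.0850 by edgeR) was 0.44 (FDR = 0.227) without the 2 livers.

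ERCC1, which forms a nuclease with ERCC4 and cuts on the 5′ side of a lesion, was at 28.7 to 39.1 CPM in young livers and at 24.8, 23.2 and 26.6 in old ones. All old livers were lower, yet the log2 fold change of -0.38 did not pass (FDR = 0.207 by edgeR). ERCC4 was at 1.78 CPM in the 4.1-year liver and 3.02 in A, against 7.63 to 10.3 in the 7 other livers. ERCC5, the nuclease of the 3′ side, went the other way, with 19.1 in the 4.1-year liver and 55.4 in A, against 9.10 to 12.5 in the 7 others, and its log2 fold change of 1.01 did not pass (FDR = 0.208 by edgeR). The remaining genes, among them the helicases ERCC2 and ERCC3 and the damage verifier XPA, had log2 fold changes between -0.37 and 0.39.

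The Fanconi anemia pathway repairs crosslinks between the strands. Of its 3 genes here, 1 was called, higher in old livers (33.3%, against 11.7% of all genes tested). FANCD2, which is placed on DNA together with FANCI, was at 20.4, 22.2 and 23.3 CPM in young livers and at 82.1, 25.0 and 26.4 in A, B and C. Young livers were closely alike, and B and C lay just above them. The log2 fold change was 1.01 (standard error 0.34, FDR = 0.0908 by edgeR), and 0.22 (FDR = 0.224) without the 2 livers. FANCA, of the core complex, was at 2.71 to 5.63 CPM in young livers and at 4.97, 6.50 and 7.46 in old ones, with a log2 fold change of 0.71 (FDR = 0.152 by edgeR) that was called without the 2 livers (0.76, FDR = 0.0769). FANCA overlaps ZNF276 in the RefSeq annotation of another assembly, and ZNF276 had a log2 fold change of 1.57. FANCI was at 46.2 to 116 CPM in young livers and at 246, 57.4 and 103 in old ones and did not pass. MGMT, which removes methyl groups from guanine in a single step, was at 1.01 to 3.08 CPM in young livers and at 0.671, 2.11 and 1.95 in old ones (log2 fold change -0.43, FDR = 0.527 by edgeR).

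**Figure D3:**
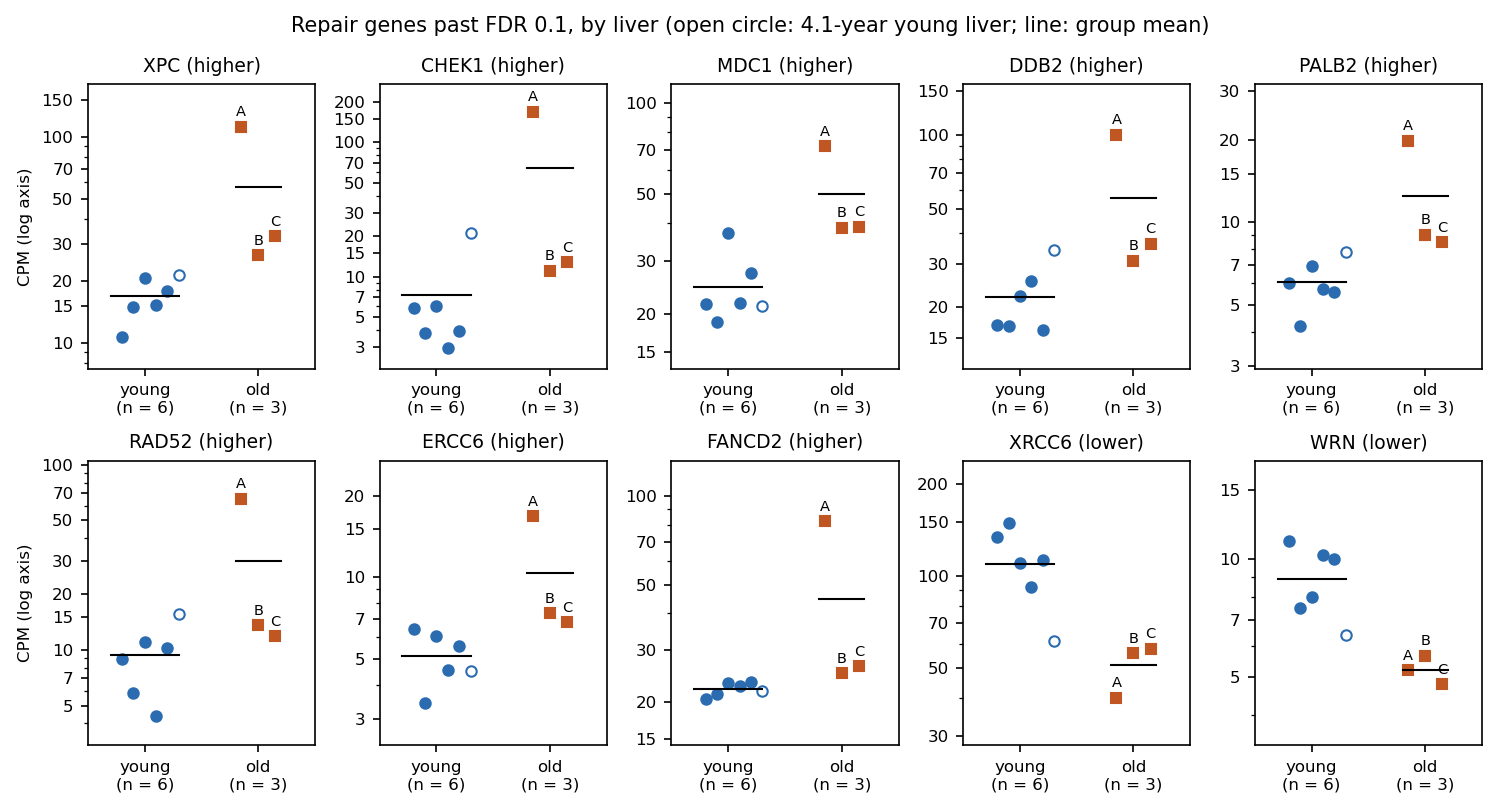
CPM on a log axis of the 10 repair genes past FDR 0.1 in each of 6 young livers (circles, open for the 4.1-year liver) and old livers A, B and C (squares), with lines at the group means. A lies far above B and C for CHEK1 (168 against 11.1 and 12.8) and RAD52, whereas the 3 old livers lie together for WRN (4.78 to 5.65).

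The 2 livers that stood apart departed from their groups in the same direction for many genes, among the repair genes no more often than among all genes. For each gene the departure of A was taken as its log2(CPM + 0.5) minus the mean of B and C, and that of the 4.1-year liver as its value minus the mean of the other 5 young livers. Across the 55 genes the departures had a Pearson correlation of 0.80 and a Spearman correlation of 0.75, and over all 12277 genes 0.55 and 0.50. These correlations are descriptions across genes that share the same 9 libraries, and genes are not independent replicates. Both departures were positive for 18 genes and negative for 15, A alone was positive for 18, and the 4.1-year liver alone was positive for 4. The same direction was thus seen for 60% of the repair genes and 66.4% of all genes.

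CHEK1 had the largest departures in both livers, 3.76 in A and 2.15 in the 4.1-year liver. ERCC5 departed by 2.47 and 0.78, RAD52 by 2.32 and 0.98, MSH3 by 2.11 and 1.09 and MUTYH by 1.97 and 1.04. In the other direction stood FEN1 (-1.93 and -1.37), TDG (-1.45 and -1.70) and ERCC4 (-1.44 and -2.07). Departures of at least 2-fold were seen in A for 19 genes upward and 7 downward, and in the 4.1-year liver for 4 upward and 5 downward. These are 47.3% of the repair genes in A, against 43.4% of all genes, and 16.4% in the 4.1-year liver, against 22.0%. TP53BP1, BRCA2, RAD50 and FANCD2 departed in A (1.66, 1.69, 1.48 and 1.66) and hardly in the 4.1-year liver (-0.05, -0.03, -0.0030 and -0.03). The part of this pattern in the difference between old and young livers was not tested beyond the fits without these livers.

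**Figure D4:**
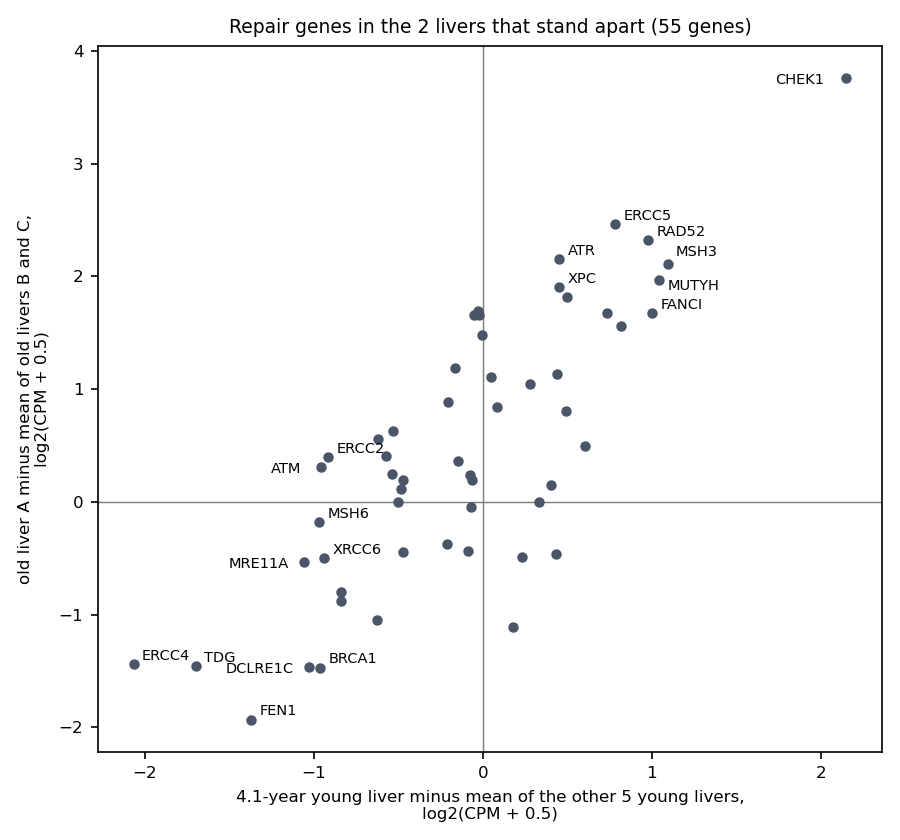
Departure of old liver A from the mean of old livers B and C (vertical axis) against the departure of the 4.1-year young liver from the mean of the other 5 young livers (horizontal axis), both on the log2(CPM + 0.5) scale, for the 55 tested repair genes. CHEK1 lies alone at the upper right (2.15 and 3.76) and ERCC4, TDG and FEN1 at the lower left.

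Ratios between genes whose proteins work as partners or in the same pathway were computed for 12 pairs. The ranges of old and young livers overlapped for 11 of them. The ratios are of raw counts within a liver, so library scaling does not enter, and since gene length does, only their change between livers can be read. The pairs were chosen after their values had been seen, and no test was made. XRCC6 per XRCC5 was 3.52 to 9.56 in young livers, with a median of 6.47, and 1.16, 3.59 and 3.61 in A, B and C. B and C were just above the 4.1-year liver and below the other 5 young livers. MRE11A per RAD50 was 0.599 in the 4.1-year liver, 1.14 to 1.38 in the other young livers and 0.249, 0.988 and 1.12 in old ones. NBN per RAD50 was 0.479 in the 4.1-year liver, 0.812 to 1.01 in the other young livers and 0.145, 0.778 and 0.732 in old ones. For both pairs all old livers were below the 5 other young ones, and A was the lowest of the 9.

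MSH3 per MSH6 moved in the opposite sense. It was 2.68 in the 4.1-year liver, 0.447 to 1.00 in the other young livers, and 6.80, 1.34 and 1.41 in A, B and C. XPC per ERCC3, 2 genes of nucleotide excision repair, did not overlap between the groups, at 0.371 to 0.887 in young livers and 3.87, 1.15 and 1.27 in old ones. BRCA2 per PALB2 was 0.746 to 1.18 in young livers and 0.763, 0.418 and 0.590 in old ones, so that B and C were below all young livers and A was not. The other 6 pairs were ERCC4 per ERCC1, FANCD2 per FANCI, BRCA1 per BARD1, DDB2 per DDB1, XRCC1 per LIG3 and XRCC4 per LIG4, and all 6 overlapped between the groups.

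**Figure D5:**
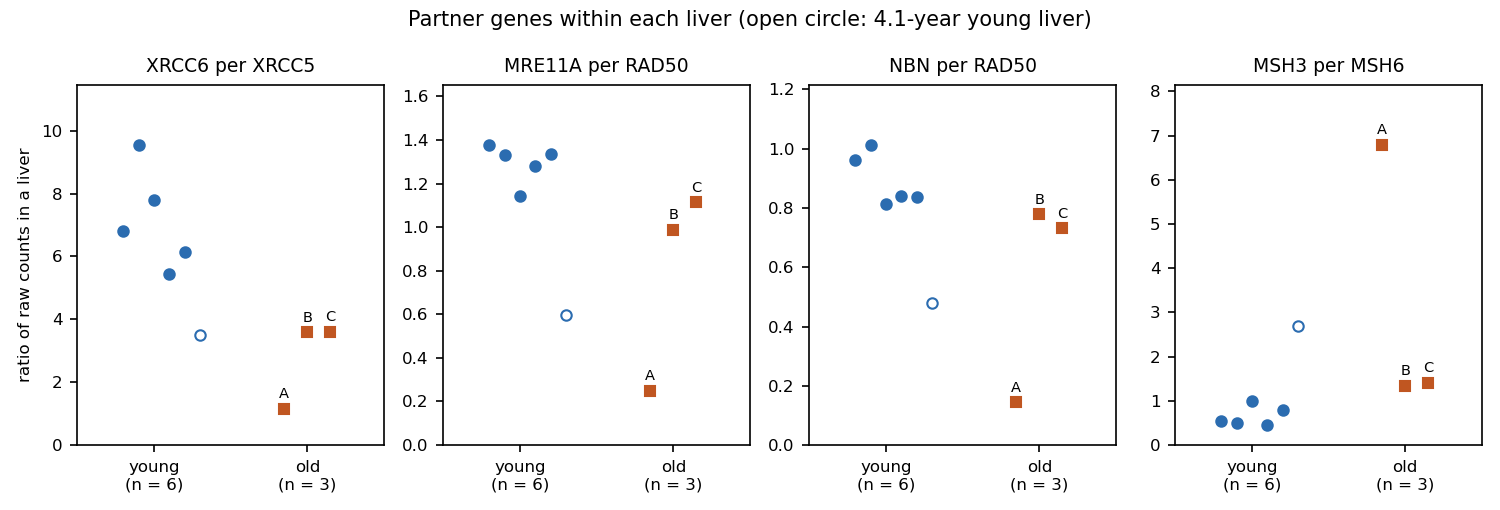
Ratio of raw counts of partner genes within each of 6 young livers (circles, open for the 4.1-year liver) and old livers A, B and C (squares). XRCC6 per XRCC5 has a young median of 6.47 and is 1.16, 3.59 and 3.61 in the old livers, and in all 4 panels the 4.1-year liver departs from the other young livers toward old liver A.

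Markers of cell types and of cell division were read beside the repair genes, since many of these also act in replication. Of 26 proliferation genes, 25 had a row and 17 were tested. With all 9 livers only PLK1, a mitotic kinase, was called (log2 fold change 2.32, FDR = 0.0652 by edgeR). Without A none of the 17 was called. In edgeR's fit without A and the 4.1-year liver, PLK1 (0.78, FDR = 0.0522) and PCNA (0.60, FDR = 0.0313) were called higher. TOP2A (-1.84, FDR = 0.0643) and TYMS (-0.70, FDR = 0.0461) were called lower there. PLK1 was at 104 CPM in A, 9.78 in B, 13.3 in C and 17.4 in the 4.1-year liver, an order of livers like that of CHEK1. MKI67, the most used marker of dividing cells, was at no more than 0.560 CPM in any liver and at 0 in the 3.8-year liver and in C, and CCNB1, AURKB, CENPE and KIF20A were likewise at 0 in at least 1 liver. The proliferation genes together summed to 48.7 to 74.0 CPM in young livers and to 152, 57.8 and 65.4 in A, B and C. PLK1 made up most of the sum in A. Without it the other 24 genes summed to 42.6 to 62.3 CPM in young livers and to 47.8, 48.0 and 52.1 in A, B and C, within the young range. Single genes moved apart within that sum. A was the highest of the 9 livers for 5 of the 17 tested, PLK1, BUB1B, KIF11 (3.86 CPM), TTK (4.92) and MCM4. It was the lowest for 4, RRM2, MCM3 (0.447), MCM6 (7.21) and PCNA.

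The 57 repair genes summed to 1091 to 1259 CPM in young livers and to 2431, 1183 and 1259 in A, B and C. Thus B and C lay within or at the edge of the young range and A above it. The 10 hepatocyte markers summed to 128300 to 222500 CPM in young livers, to 31850 in A and to 103900 and 90940 in B and C. ALB, the largest of them, was at 90095 to 177160 CPM in young livers and at 11955, 69097 and 61356 in A, B and C. The markers did not move together. A was the lowest of the 9 livers for 6 of them and the highest for 2, ARG1 (5663) and APOA1 (1588). None of the 10 was called, with 4 positive and 6 negative log2 fold changes. The liver label was borne out by the abundance of the hepatocyte markers in every library, A included. Endothelial markers (7 genes) summed to 336 to 629 CPM in young livers and to 1531, 585 and 572 in old ones. The sum in A was carried by STAB1 (755), STAB2 (433) and VWF (174), of which STAB1 and VWF were called higher in old livers (log2 fold change 1.38 and 1.00, FDR = 0.0598 and 0.0923 by edgeR), whereas the defining marker PECAM1 was called lower (-0.58, FDR = 0.0833), at 23.1 to 28.1 CPM in young livers and 15.9, 19.6 and 16.5 in A, B and C. CDH5, another defining marker, was lowest of the 9 livers in A (28.1 CPM). A was the highest of the 9 livers for 5 of the 7 endothelial markers, also KDR (88.2 CPM) and TEK (36.5), and the lowest for 2. Stellate cell markers (7 genes) summed to 92.5 to 140 CPM in young livers and to 69.3, 88.2 and 76.7 in old ones, without overlap, and LRAT and RGS5 were called lower (-1.94 and -1.48, FDR = 0.0478 and 0.0907 by edgeR). Erythroid markers (6 genes) summed to 129 to 587 CPM in young livers and to 37.7, 39.4 and 65.5 in old ones, also without overlap, and HBB and ALAS2 were called lower (-2.52 and -1.85, FDR = 0.0499 and 0.0312 by edgeR). LRAT and ALAS2 kept their calls without A (FDR = 0.0795 and 0.0461 by edgeR). Macrophage markers (7 genes) summed to 177 to 296 CPM in young livers and to 85.6, 351 and 340 in old ones. MARCO made up most of the sums in old livers (55.3, 219 and 238 in A, B and C). None of the 6 macrophage markers tested was called with all 9 livers. VSIG4 alone was called higher without A (log2 fold change 1.72, FDR = 0.0567 by edgeR) and without both livers (1.67, FDR = 0.0155). It was at 3.48 to 9.51 CPM in young livers and at 0.726, 19.8 and 16.1 in A, B and C. CD163 was at 0 in all 6 young livers and at 0.056, 0.045 and 0.046 CPM in A, B and C, too low to be tested. The 10 lymphocyte markers summed to 8.76 to 20.6 CPM in young livers and to 13.9 to 21.6 in old ones. The part of these shifts in the repair gene results was not tested.

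Further repair genes were read from a wider list of 101, of which 96 had a row and 88 were tested. Most are of the same pathways. The list also holds 12 genes of translesion synthesis, a pathway not among those of the 57 genes, and POLH and RAD18 below belong to it. Of these, 10 were higher (11.4%, against 11.7% of all genes tested) and 2 lower (2.27%, against 3.65%) in old livers. The median log2 fold change of the 88 was 0.23. These counts also depended on single livers, with 1 higher and 3 lower without A, 0 and 0 without the 2.7-year or the 3.7-year liver, 1 and 0 without the 2.8-year liver, and 2 and 1 without the 3.4-year or the 3.8-year liver. They were 20 and 4 without the 4.1-year liver, 22 and 1 without B and 21 and 1 without C. The shares of all genes called moved too. They were 1.02% to 6.43% higher and 0.507% to 1.69% lower without A or 1 of the other young livers. Without the 4.1-year liver, B or C they were 15.9% to 17.0% higher and 3.62% to 7.06% lower. FAN1, a nuclease that resolves crosslinks, was at 15.5 to 20.1 CPM in young livers and at 44.6, 25.7 and 28.6 in A, B and C. Its log2 fold change was 0.95 (standard error 0.22, FDR = 0.0439 by edgeR), and it kept its call without A (0.67, FDR = 0.0844), which no gene of the 57 did. UVSSA, which acts with ERCC6 at stalled polymerase, was at 11.1 to 18.1 CPM in young livers and at 32.2, 23.1 and 23.7 in old ones (log2 fold change 0.75, FDR = 0.0648 by edgeR). POLH, the polymerase that copies past ultraviolet lesions, was at 1.98 to 5.06 CPM in young livers and at 14.5, 7.80 and 4.73 in old ones (log2 fold change 1.52, FDR = 0.0552 by edgeR). Without A neither was called (FDR = 0.164 and 0.216).

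RAD18, the ubiquitin ligase that starts the bypass of lesions during replication, was lower in old livers. Its level was 97.2 to 181 CPM in young livers and 40.0, 67.2 and 72.4 in A, B and C. All old livers were below all young ones, the 4.1-year liver (135) was within the range of the other young livers, and the log2 fold change was -1.18 (standard error 0.28, FDR = 0.0463 by edgeR). Without A it was -0.96 (FDR = 0.0892), still past the threshold. GTF2H5, the smallest subunit of the repair and transcription factor TFIIH, was at 10.9 to 23.8 CPM in young livers and at 4.81, 8.52 and 8.76 in old ones (log2 fold change -0.94, FDR = 0.0980 by edgeR). Its highest young value was that of the 4.1-year liver, and it was not called without A (FDR = 0.279 by edgeR).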

How the data were processed

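The authors deposited raw read counts per gene. Following the study's methods and the submitters' processing notes, single-end reads of unstranded poly(A) libraries were mapped with STAR (version 2.4.1d) to the public naked mole-rat genome, only reads with a single place were kept, and HTSeq counted them per gene in an annotation that the authors had built. Which version and strand setting of HTSeq were used is not given in the sources used here. Reads that fit close paralogs equally well were thus not counted. Of 16339 rows, 93 with misplaced symbols (0.319% of counts) and 25 with symbols turned into dates (0.133%) were left out, none of them a repair gene, which left 16221. The fit with these rows is given as an alternative.

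The comparison of the age groups was run with edgeR 4.0.16 under R 4.3.3 (TMM, filterByExpr by group, robust quasi-likelihood fit, no covariates), with Benjamini-Hochberg adjustment over all 12277 genes tested at FDR 0.1. The study used DESeq2, here an alternative (version 1.42.0), because the quasi-likelihood test is the main test for counts here. Alternatives with voom used limma 3.58.1. CPM values are TMM-scaled. Standard errors were derived as |log2 fold change| over the root of F. No pair of libraries agreed within sampling noise (for the closest pair, chi-square was 27.6 times its degrees of freedom), so none repeats another. Each animal, with its 1 library, was taken as 1 replicate. P-values set the difference between the groups against the spread among the animals within them, and the groups also differ in the origin of their libraries.

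The repair genes, the other lists and the tests were chosen with earlier results of these data known. Values are given in full for genes called, genes whose groups do not overlap, the 2 genes with the lowest p in each pathway and 12 textbook genes, and for the 2 livers that stand apart where they differ most, chosen after their values were seen. Overlaps between genes come from RefSeq models of another assembly, in which all 57 symbols were found, so no coordinates or sequences are given. Overlaps are not limited to MUTYH, DDB2 and FANCA. DCLRE1C overlaps SUV39H2 (log2 fold change -0.502), XRCC3 overlaps KLC1 (0.506) and MSH6 overlaps FBXO11 (0.325). WRN, RAD52 and FANCD2 overlap pseudogenes, and some genes that were not called also overlap a neighbour.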

Additional observations from a re-analysis of the deposited data

Results flagged for a closer look

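In 10 of the 57 repair genes 1 young liver lay far from the other 5, by the gap to its nearest neighbour relative to the range of the group. Chance gives such a gap in about 1 in 20 groups. It was seen for 18.2% of the 55 tested repair genes and for 20.3% of all genes tested, so it was no more frequent among the repair genes. In 8 of the 10 genes (14.5% of the 55, against 17.7% of all genes) it was the 4.1-year liver, which was high for 3 and low for 5. Its high values were 21.1 CPM for CHEK1 (others 2.95 to 6.08), 9.90 for MUTYH (others 4.01 to 5.13) and 19.1 for ERCC5 (others 9.36 to 12.5). Its low values were 6.60 CPM for MRE11A (others 13.0 to 15.5), 5.28 for NBN (others 9.28 to 10.1), 5.55 for NTHL1, which removes oxidized pyrimidines (others 7.56 to 8.58), 3.24 for TDG (others 10.3 to 13.7) and 1.78 for ERCC4 (others 7.63 to 10.3). The remaining 2 genes were BARD1, the partner of BRCA1, at 1.79 CPM in the 3.4-year liver (others 0.724 to 1.06), and XPA at 11.6 CPM in the 3.8-year liver (others 8.98 to 9.47). The 3 old livers are too few for the same comparison.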

How the results depend on the processing

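The counts of 8 repair genes higher and 2 lower in old livers became 21 and 1 with total counts in place of TMM, a scaling that moved the median log2 fold change of all genes from 0.02 to 0.31 and that of the repair genes from 0.34 to 0.64, a difference of 0.33 in both. The share of higher calls was then 93.5% of all calls, against 76.2% with TMM, and 95.5% of the repair gene calls, against 80%. The 21 and 1 are 38.2% and 1.82% of the repair genes, where 28.3% and 1.96% of all genes were called. At FDR 0.05 the counts were 1 (1.82%, against 2.69% of all genes) and 0 (against 0.733%), with voom and quality weights 12 (21.8%, against 20.5%) and 4 (7.27%, against 16.8%), and with no filter on low counts 8 (14.0%, against 9.13%) and 1 (1.75%, against 2.43%). Leaving out 1 liver gave 0 to 16 higher and 0 to 3 lower, where 1.02% to 17.0% of all genes were called higher and 0.507% to 7.06% lower. The other repair genes (10 higher, 2 lower) gave 36 and 1 with total counts, 17 and 18 with voom, and 1 and 1 at FDR 0.05. They gave 8 and 1 with upper quartile scaling (9.86% and 3.39% of all genes) and 9 and 1 without the filter. Without old liver A and the 4.1-year liver they gave 10 and 13, where 14.2% and 11.7% of all genes were called. With 1 liver left out they gave 0 to 22 and 0 to 4. The shares of all genes given above for the repair genes hold for the same settings here. Upper quartile scaling, DESeq2, DESeq2 size factors, TMM without the 50 genes of highest count, at least 10 counts in every liver and the whole table as deposited kept the counts of repair genes at 7 to 9 higher and 2 lower, where 9.86% to 13.4% of all genes were called higher and 3.39% to 6.85% lower.

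Among the 27 genes named by rule, 5 not called changed sign. ATM had a log2 fold change of -0.018 with voom and -0.068 without the 2 livers. BRCA2 had -0.41 with voom, -0.45 without the 2 livers and, with 1 liver left out, -0.44 (without A) to 0.75 (without B). XRCC5 had -0.081 with voom, -0.10 without the 2 livers and, with 1 liver left out, -0.11 (without A) to 0.57 (without B). PARP1 had 0.18 with total counts and MGMT 0.083 with voom. Why these changes arose was not tested. No called gene changed sign under any alternative run. No paired analysis was possible because the labels give no replicate numbers, and the groups hold different animals. BLM and RAD54L, with at most 12 counts in a liver, were left out of the main test by its filter on low counts. The fit without that filter included all 57 repair genes.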

Other observations

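The genes in this section were picked out after their values had been seen, and their differences are descriptions. POLQ, the polymerase of an error-prone end-joining route, was at 1.37 to 3.30 CPM in young livers and at 2.57 in A, 0.224 in B and 0.278 in C. B and C were below every young liver while A was within the young range. With all 9 livers POLQ was not called (log2 fold change -1.27, FDR = 0.237 by edgeR), and without A and the 4.1-year liver its log2 fold change was -3.14 (FDR = 0.0044 by edgeR). GEN1, which cuts crossed recombination intermediates, was at 11.3 to 21.7 CPM in 5 young livers, 66.7 in the 4.1-year liver and 259, 22.4 and 27.2 in A, B and C. It was 10.4-fold higher in A than in the mean of B and C, and 4.30-fold higher in the 4.1-year liver than in the mean of the other 5 young livers.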
